A study of Mus musculus with 5 samples.

Results

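The core transcription factors of fat cell formation were followed here through 10 genes: Pparg, Cebpa, Cebpb, Cebpd, Rxra, Ebf1, Ebf2, Zfp423, Nr3c1 and Stat5a. They were named by symbol, with no threshold on a measured value, and every probe set annotated to 1 of these genes alone was kept. That gave 26 of the 45037 probe sets on the array, and 10 of the 18193 genes with a probe set of their own. The cells were C3H10T1/2, a mouse mesenchymal cell line that can be turned into adipocytes, and all groups were labelled as fully differentiated. The groups were butein for 6 h, sulfuretin for 6 h and their solvent control DMSO for 6 h, and resveratrol for 6 h with a solvent control of its own for 6 h, called DMSO1. Each group was 1 Affymetrix array, and doses are not stated in the labels. Butein is a chalcone, sulfuretin is an aurone in which the chalcone bridge is closed into a ring, and resveratrol is a stilbene. The series description gives the aim as a search for adipogenic or anti-adipogenic factors common to these compounds.

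Adipogenesis runs as a relay of transcription factors. The basic leucine zipper proteins C/EBPβ (Cebpb) and C/EBPδ (Cebpd) come on early, after glucocorticoid and cyclic AMP signals, and they switch on C/EBPα (Cebpa) and the nuclear receptor PPARγ (Pparg), which keep each other active in the mature fat cell. PPARγ binds DNA together with its partner RXRα (Rxra). EBF1, EBF2 and ZFP423 act in commitment to the fat lineage, while the glucocorticoid receptor (Nr3c1) and STAT5A carry hormone signals into the program.

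The upstream sequences of 3 of these genes are shown because Cebpb was the member with the largest differences, and Cebpa and Pparg stand after it in the relay. They are the 250 bases before a RefSeq transcript start in GRCm38.p6, read 5′ to 3′ in the direction of the gene, with matches to the motifs named after them in capitals. The array values are not tied to a genome build in the sources used here. The windows are chr2:167688665-167688914 for Cebpb, chr7:35119043-35119292 for Cebpa and chr6:115421816-115422065 for Pparg, all on the plus strand, and the Pparg window is that of 1 of 3 annotated starts.
Cebpb: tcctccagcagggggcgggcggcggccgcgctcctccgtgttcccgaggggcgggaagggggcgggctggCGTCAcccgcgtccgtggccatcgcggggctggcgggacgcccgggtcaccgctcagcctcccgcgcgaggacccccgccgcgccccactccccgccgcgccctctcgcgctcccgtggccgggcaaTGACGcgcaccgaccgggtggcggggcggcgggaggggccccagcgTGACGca
Cebpa: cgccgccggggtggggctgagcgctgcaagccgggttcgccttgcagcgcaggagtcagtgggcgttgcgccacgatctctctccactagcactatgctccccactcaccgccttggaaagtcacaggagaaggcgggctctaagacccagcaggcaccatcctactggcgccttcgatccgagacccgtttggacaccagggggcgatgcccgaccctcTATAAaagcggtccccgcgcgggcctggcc
Pparg: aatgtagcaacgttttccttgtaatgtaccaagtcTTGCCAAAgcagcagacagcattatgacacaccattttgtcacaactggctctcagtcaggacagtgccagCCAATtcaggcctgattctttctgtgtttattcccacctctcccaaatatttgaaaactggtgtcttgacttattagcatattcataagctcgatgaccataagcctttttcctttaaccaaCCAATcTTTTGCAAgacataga
The capitals mark TGACG, the half-site of the cyclic AMP response element, TTGCNNAA, a form of the C/EBP site, CCAAT and TATAA, each searched on both strands. The Cebpb window held TGACG 3 times, starting 180, 53 and 7 bases before the start, the most distant one on the minus strand, and none of the other motifs. At least 1 TGACG was present in 17.77% of all 32851 promoter windows of that length, and 3 or more in 0.688%. The Pparg window held TTGCNNAA 2 times, where 0.572% of all windows held it 2 times or more, and CCAAT 2 times, where 10.09% of windows held it as often or more. The windows at the other Pparg starts held no TTGCNNAA, and the one printed was chosen because it did. The Cebpa window held TATAA once, a motif found in 22.78% of windows. The full element TGACGTCA, TGATGCAA, TGANTCA, TGACNNNGC and TTCNNNGAA had no match in these 3 windows. TGACGTCA contains TGACG on both strands, so those motifs overlap. In all, 7 of the 10 members had 13 windows in the promoter table. A match is a run of letters and says nothing on binding.

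Fat cell markers were bright on every array. The brightest probe sets of 8 adipocyte markers were all above the floor on all 5 arrays, where the floor is an intensity of 8.39, the median level of all probe sets. The transcript of the fatty acid carrier Fabp4 read 8512 with butein, 9340 with sulfuretin and 9134 in DMSO, and 7338 with resveratrol and 7550 in DMSO1. The summed adipocyte marker intensity was 19958 with butein, 22744 with sulfuretin and 22807 in DMSO, and 23106 with resveratrol and 24513 in DMSO1. Fibroblast and preadipocyte markers were also bright, with 8 of 9 above the floor and sums of 6982 with butein, 8016 with sulfuretin and 8113 in DMSO, and of 6772 with resveratrol and 7108 in DMSO1, and the preadipocyte marker Dlk1 was under the floor. The defining muscle genes Myod1, Myog and Myf5 and the blood cell genes Ptprc, Adgre1 and Itgam were under the floor on every array, although 3 of 8 muscle, 4 of 6 osteoblast or chondrocyte and 3 of 6 macrophage or blood cell markers passed it. With 1 array per group there is no replicate spread and no test within a comparison. Sizes are therefore given beside the same difference over all 26028 probe sets that reached the floor on at least 1 array. Ranked by size, the intensities of butein, sulfuretin and DMSO have almost the same distribution, and resveratrol has that of DMSO1. The ranked values of DMSO1 and DMSO are 0.52 apart in the median on the log2 scale, so deposited values were compared only within these 2 sets.

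**Figure D1:**
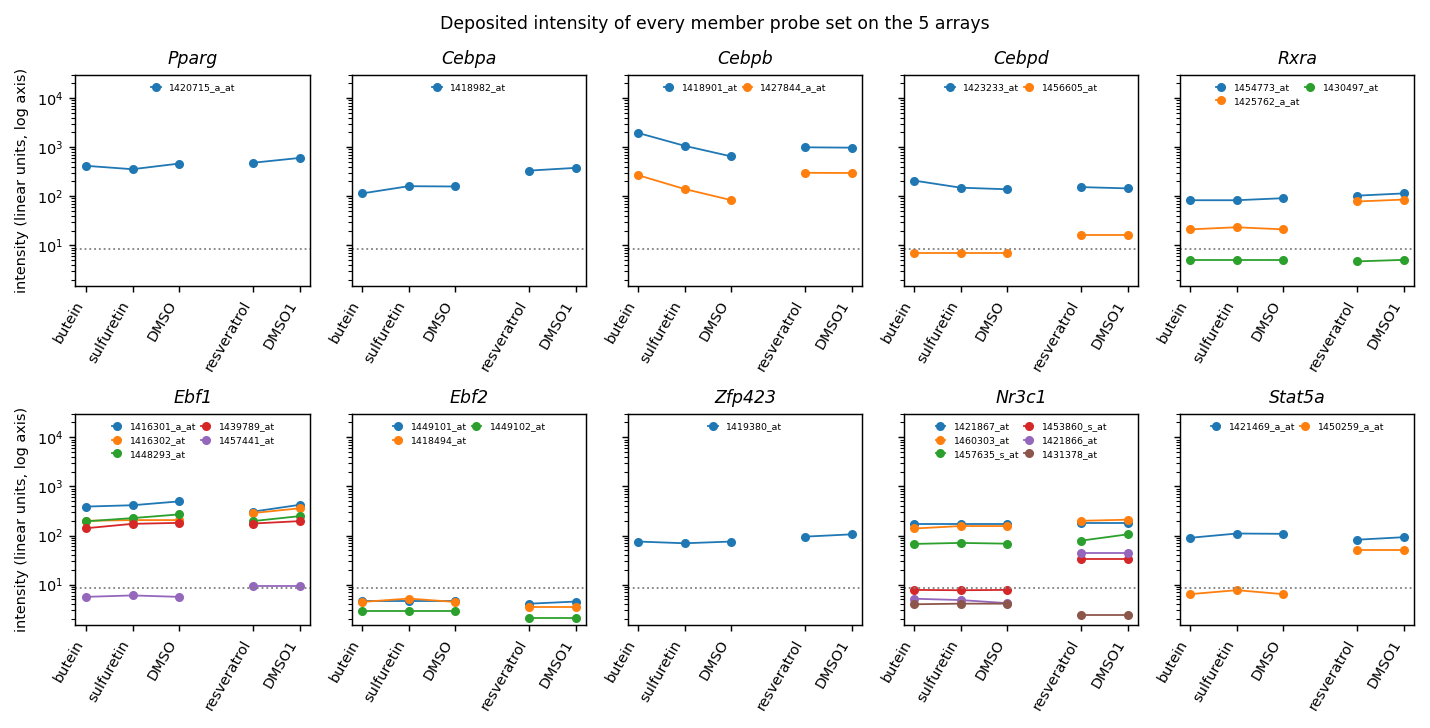
Deposited intensity (linear units on a log axis) of all 26 member probe sets on the 5 arrays, 1 panel per gene and 1 colour per probe set. Lines join arrays of the same normalization set, and the dotted line is the floor of 8.39. Both Cebpb probe sets are highest with butein and next highest with sulfuretin in their set, while Ebf2 lies under the floor on every array.

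Of the 26 member probe sets 21 reached the floor, and 5 did not: all 3 of Ebf2, 1 of Rxra and 1 of Nr3c1. Several that reached it did so only on the DMSO1 and resveratrol arrays, which lie on a brighter scale: Cebpd 1456605_at, Ebf1 1457441_at, Nr3c1 1421866_at and 1453860_s_at, and Stat5a 1450259_a_at. On the butein, sulfuretin and DMSO arrays they were under the floor.

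Cebpb gave the largest differences of the 10 genes. Its brighter probe set, 1418901_at, read 1937 with butein and 1062 with sulfuretin, against 648 in DMSO. The second, 1427844_a_at, read 268 with butein and 140 with sulfuretin, against 83.5 in DMSO. On both probe sets butein was highest, sulfuretin lay between and DMSO was lowest. Butein was 2.99-fold above DMSO on the first (log2 difference 1.58) and 3.21-fold on the second (1.68). Of all 26028 probe sets, 181 had a larger butein difference than the first and 153 than the second. Sulfuretin was 1.64-fold and 1.68-fold above DMSO (0.71 and 0.75), with 164 and 137 probe sets further up. With resveratrol Cebpb read 991 and 299, against 974 and 297 in DMSO1, log2 differences of 0.03 and 0.01. Both probe sets measure the same RNA, so they do not count as repeat cultures. In bulk RNA, fewer cells of a type and less RNA per cell cannot be told apart.

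These were the only member probe sets past 2-fold with butein, 2 of 21, both higher, where 2.21% of all probe sets passed in either direction and 1.76% upward. At 1.5-fold 1 probe set of Cebpd joined them, which made 3 of 21, all higher, beside 7.23% of all probe sets in either direction and 4.61% upward. With sulfuretin no member passed 2-fold (0.242% of all probe sets did), and at 1.5-fold both Cebpb probe sets passed and no other member, both higher, beside 1.78% of all probe sets in either direction and 1.2% upward. With resveratrol no member passed 2-fold or 1.5-fold, beside 0.111% and 0.638% of all probe sets. The median log2 difference over the 26 member probe sets was 0 with butein, 0 with sulfuretin and -0.09 with resveratrol, and the median over all probe sets at the floor was 0 in each comparison. Shares near the background say nothing particular about these genes, and butein and sulfuretin share their DMSO array.

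**Figure D2:**
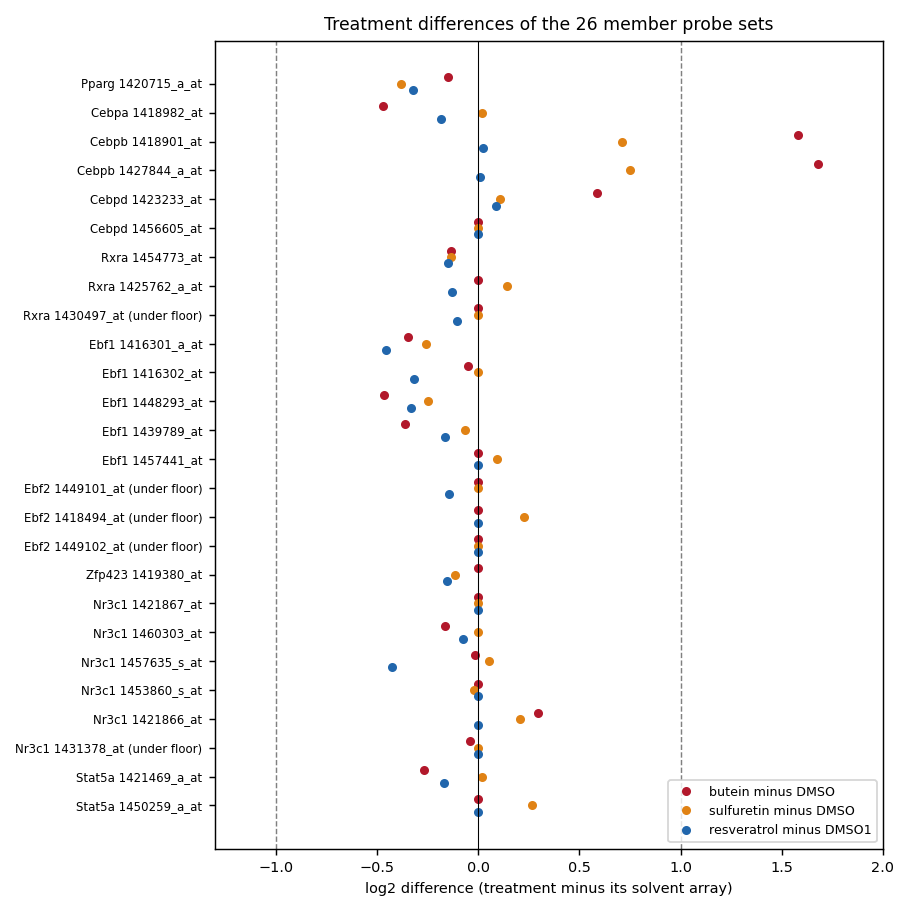
Log2 difference of each treated array to its solvent array for every member probe set, named on the vertical axis. Dashed lines mark 2-fold. The 2 Cebpb probe sets pass 2-fold with butein (1.58 and 1.68), and all other points lie inside the lines.

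The size of the Cebpb difference rested on which solvent array it was measured against. After all 5 arrays had been quantile normalized together, the DMSO1 array stood above DMSO by 0.30 on 1418901_at and by 1.35 on 1427844_a_at. On that scale butein exceeded DMSO1 by 1.22 on the first probe set but by 0.26 on the second. Sulfuretin exceeded DMSO1 by 0.41 on the first and differed from it by -0.64 on the second, where the direction thus turned. Resveratrol, which lay close to DMSO1 on both, exceeded DMSO by 0.35 on the first and by 1.39 on the second. With both solvent arrays treated as replicates in limma, which leaves 1 residual degree of freedom and takes the spread of the treated groups to equal that of the solvent arrays, no probe set of 25038 passed an adjusted p of 0.05 for butein. The fit also moderated each spread with a prior of 3.36 degrees of freedom taken from all 25038 probe sets. Its log2 difference for butein was 1.37 on Cebpb 1418901_at and 0.94 on 1427844_a_at. The fit covered 20 member probe sets, those at the floor on the joint scale.

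Cebpd, the other early C/EBP gene, differed less. Its probe set 1423233_at read 208 with butein and 149 with sulfuretin, against 139 in DMSO, and 153 with resveratrol, against 144 in DMSO1. Butein was highest, 1.5-fold above DMSO (log2 difference 0.59), and 4.58% of all probe sets lay further up. The differences were 0.11 with sulfuretin and 0.09 with resveratrol. Against DMSO1 on the joint scale the butein difference was 0.98, while against DMSO the resveratrol difference turned to -0.31. The second probe set, 1456605_at, read exactly 6.85 with butein, sulfuretin and in DMSO and exactly 16.4 with resveratrol and in DMSO1.

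Such exact ties were common in the deposited values. With butein 7 of the 21 members at the floor were equal to DMSO within 1e-06 on the log2 scale, as were 34.6% of all probe sets. With sulfuretin 4 of 21 were equal (36.6% of all probe sets) and with resveratrol 6 of 21 (36.9%). A difference of exactly 0 may therefore hide a small one.

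Cebpa, the C/EBP factor of the mature fat cell, was lower with butein. Its 1 probe set, 1418982_at, read 114 with butein and 160 with sulfuretin, against 158 in DMSO, and 332 with resveratrol, against 378 in DMSO1. Butein was 1.38-fold lower (log2 difference -0.47), with 4.47% of all probe sets further down, while sulfuretin lay within 0.02 of DMSO. Resveratrol was 1.14-fold lower (-0.19). DMSO1 stood 0.83 above DMSO on the joint scale, and against the other solvent array the differences were -1.31 with butein, -0.81 with sulfuretin and 0.67 with resveratrol. The direction thus held for butein and turned for the other compounds. Against their own solvent arrays the summed adipocyte markers were also lower with butein and with resveratrol, and so were the summed fibroblast and preadipocyte markers. The part of these markers in the Cebpa values was not tested.

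Pparg, the nuclear receptor that maintains the fat cell program, was lower with all 3 compounds. Its 1 probe set, 1420715_a_at, read 416 with butein and 355 with sulfuretin, against 462 in DMSO, and 481 with resveratrol, against 602 in DMSO1. Sulfuretin gave the lowest value of its set. The log2 differences were -0.15 with butein, -0.38 with sulfuretin and -0.32 with resveratrol, none past 1.5-fold. Below these lay 19.2% of all probe sets for butein, 2.33% for sulfuretin and 1.97% for resveratrol. The 2 solvent arrays differed by 0.04 on the joint scale, the smallest difference among the 21 members at the floor. Against the other solvent array the Pparg differences were -0.18, -0.38 and -0.28 for butein, sulfuretin and resveratrol, and no setting that was run turned the direction. The probe set does not separate the transcripts that start at the 3 annotated Pparg starts.

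Rxra, which encodes the partner of PPARγ on DNA, stayed near its solvent arrays. The brightest probe set, 1454773_at, read 83.0 with butein and 83.0 with sulfuretin, against 91.2 in DMSO, and 103 with resveratrol, against 114 in DMSO1, which is 1.10-fold to 1.11-fold lower in each case. The other probe set at the floor, 1425762_a_at, read 21.2 with butein and 23.4 with sulfuretin, against 21.2 in DMSO, and 78.2 with resveratrol, against 85.5 in DMSO1. It differed more between the solvent arrays (1.29 on the joint scale) than in any treatment comparison. The third, 1430497_at, lay between 4.72 and 5.07 on all arrays, under the floor.

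Ebf1, an early B cell factor gene with a role in preadipocytes and fat cells, has 5 probe sets, of which 4 were well above the floor. The brightest, 1416301_a_at, read 389 with butein and 414 with sulfuretin, against 495 in DMSO, and 307 with resveratrol, against 421 in DMSO1. Probe set 1448293_at read 195 with butein and 226 with sulfuretin, against 269 in DMSO, and 197 with resveratrol, against 248 in DMSO1. Each treated array was below its solvent array on these probe sets. Probe set 1439789_at read 141 with butein and 173 with sulfuretin, against 181 in DMSO, and 176 with resveratrol, against 196 in DMSO1. Probe set 1416302_at read 199 with butein and 206 with sulfuretin, against 206 in DMSO, and 287 with resveratrol, against 358 in DMSO1. The 4 probe sets thus lay below the solvent array in 11 of 12 comparisons and tied with it in 1, sulfuretin on 1416302_at. They measure RNA of 1 gene, and butein and sulfuretin share DMSO, so the 12 do not count as repeats. Of all probe sets at the floor 35.0% were lower with butein, 32.5% with sulfuretin and 31.9% with resveratrol.

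The log2 differences of these 4 Ebf1 probe sets ran from -0.47 to -0.05 with butein, from -0.26 to 0 with sulfuretin and from -0.46 to -0.16 with resveratrol. The largest with resveratrol, on 1416301_a_at, was 1.37-fold lower and had 191 of the 26028 probe sets below it, or 0.734%. None passed 1.5-fold. The solvent arrays differed by -0.61, -0.54, -0.34 and 0.38 on 1416301_a_at, 1448293_at, 1439789_at and 1416302_at on the joint scale. Against the other solvent array butein gave 0.27, 0.08, -0.02 and -0.44, sulfuretin 0.38, 0.31, 0.28 and -0.39, and resveratrol -1.04, -0.86, -0.48 and 0.09, so the direction turned on 2 of 4 probe sets with butein and on 1 of 4 with resveratrol. With sulfuretin it turned on the 3 that had differed from DMSO. The fifth probe set, 1457441_at, read 5.65 with butein, 6.04 with sulfuretin and 5.65 in DMSO, and 9.51 with resveratrol and in DMSO1.

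The related gene Ebf2, known for its role in brown fat cells, had no value at the floor. Its 3 probe sets lay between 2.98 and 5.21 with butein, with sulfuretin and in DMSO, and from 2.12 to 4.53 with resveratrol and in DMSO1. At these levels no difference could be read. Zfp423, a zinc finger factor of preadipocyte commitment, read 75.4 with butein and 69.6 with sulfuretin on its probe set 1419380_at, against 75.4 in DMSO, and 95.0 with resveratrol, against 106 in DMSO1. The log2 differences were 0, -0.11 and -0.15 for butein, sulfuretin and resveratrol, small in each case.

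Nr3c1, the glucocorticoid receptor gene, had 6 probe sets with uneven readings. Probe set 1421867_at read exactly 169 with butein, sulfuretin and in DMSO and exactly 180 with resveratrol and in DMSO1. Probe set 1460303_at read 139 with butein and 156 with sulfuretin, against 156 in DMSO, and 200 with resveratrol, against 210 in DMSO1. On 1457635_s_at the values were 67.5 with butein and 70.8 with sulfuretin, against 68.3 in DMSO, and 78.8 with resveratrol, against 106 in DMSO1. That resveratrol difference of -0.43 (1.34-fold lower, 0.903% of all probe sets further down) was not shared by the 2 brighter probe sets, at 0 and -0.07. The suffix of 1457635_s_at marks a probe set whose probes can match more than 1 transcript sequence. Probe set 1421866_at read 5.17 with butein, 4.86 with sulfuretin and 4.21 in DMSO, but 43.1 with resveratrol and in DMSO1. On 1453860_s_at the values were 7.83 with butein, 7.70 with sulfuretin and 7.83 in DMSO, but 32.8 with resveratrol and in DMSO1. These 2 probe sets separate the arrays by normalization set and not by compound. The sixth, 1431378_at, lay between 2.39 and 4.11, under the floor.

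Stat5a, which carries growth hormone and prolactin signals, had the same feature. Its brighter probe set 1421469_a_at read 90.0 with butein and 110 with sulfuretin, against 108 in DMSO, and 82.3 with resveratrol, against 92.5 in DMSO1. Butein was 1.20-fold lower and resveratrol 1.12-fold lower, while sulfuretin lay 0.02 above DMSO. Against DMSO1 on the joint scale the butein difference turned to 0.50. The dimmer 1450259_a_at read 6.42 with butein, 7.73 with sulfuretin and 6.42 in DMSO, but 50.1 with resveratrol and in DMSO1.

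**Figure D3:**
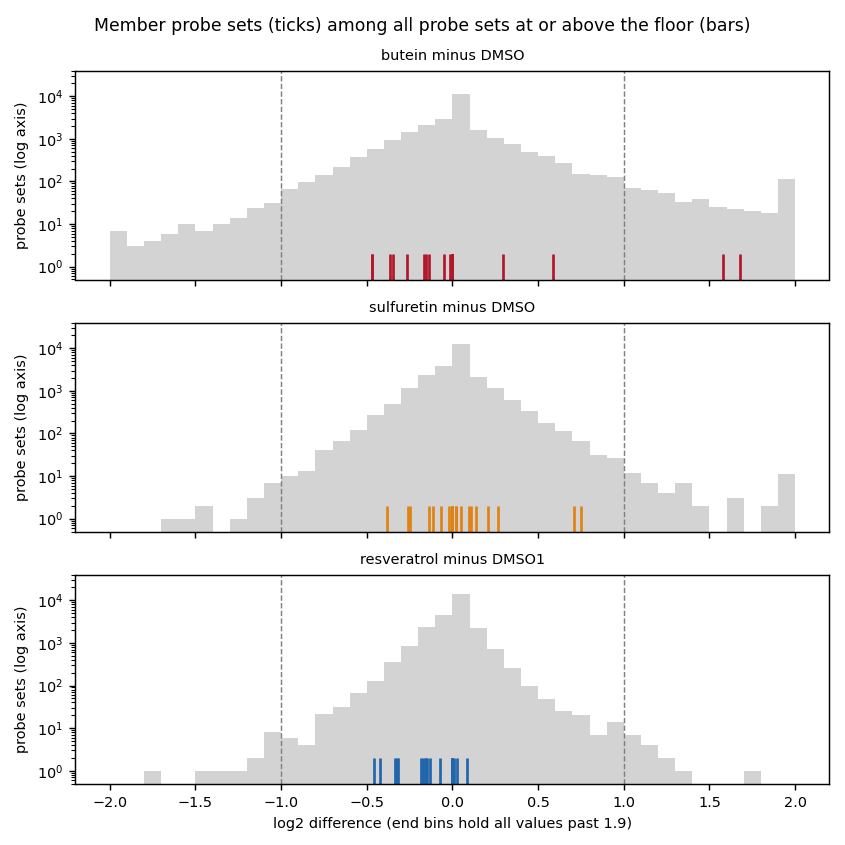
Member probe sets at the floor (coloured ticks, 21 in each panel, some overlapping) on the histogram of all 26028 probe sets at the floor (grey bars, log axis), by log2 difference of each treated array to its solvent array. Dashed lines mark 2-fold. Only the Cebpb ticks with butein lie outside the lines, and the resveratrol ticks lie between -0.46 and 0.09.

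When DMSO1 was set against DMSO on the joint scale, 5 of the 21 member probe sets at the floor were past 2-fold. All were higher in DMSO1, beside 11.5% of all probe sets past 2-fold in either direction and 7.13% upward. The 5 were Nr3c1 1421866_at (2.97), Stat5a 1450259_a_at (2.28), Cebpb 1427844_a_at (1.35), Rxra 1425762_a_at (1.29) and Nr3c1 1453860_s_at (1.22). Apart from Cebpb 1427844_a_at, none of these probe sets was past 1.5-fold in any treatment comparison. Each of these 4 genes also had a brighter probe set that differed less between the solvent arrays: 0.30 on Cebpb 1418901_at, -0.37 on Nr3c1 1421867_at, -0.22 on Rxra 1454773_at and -0.79 on Stat5a 1421469_a_at. Nr3c1 1421866_at, Nr3c1 1453860_s_at and Stat5a 1450259_a_at passed the floor only on the DMSO1 and resveratrol arrays. The floor thus favours a higher DMSO1 value, both for them and in the upward share of all probe sets. Culture, array run and normalization set cannot be told apart here.

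**Figure D4:**
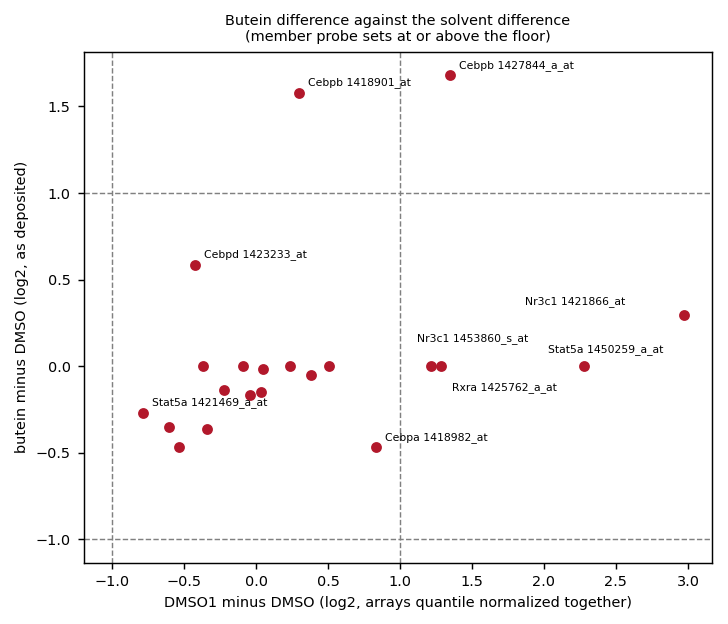
Butein minus DMSO (vertical, log2 as deposited) against DMSO1 minus DMSO (horizontal, log2 after the 5 arrays were quantile normalized together) for the 21 member probe sets at the floor; dashed lines mark 2-fold and some points are named. Cebpb 1418901_at lies high on the butein axis (1.58) and near 0 on the solvent axis (0.30), while Cebpb 1427844_a_at is past 2-fold on both (1.68 and 1.35). The axes share the DMSO array.

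The chalcone and the aurone were set side by side at the same time point, 1 pair, with doses not stated. Sulfuretin minus butein was -0.87 on Cebpb 1418901_at and -0.93 on 1427844_a_at, so Cebpb was 1.82-fold and 1.91-fold lower with sulfuretin than with butein. These were the 2 members past 1.5-fold, beside 3.67% of all probe sets in either direction and 2.66% downward, and none passed 2-fold, as 0.991% of all probe sets did. Cebpd 1423233_at was 1.39-fold lower with sulfuretin than with butein and Cebpa 1.40-fold higher (log2 difference 0.49, with 1.84% of all probe sets further up). Pparg was 1.17-fold lower. With 1 array each, an interval can be had only by taking the spread from the solvent arrays, here moderated across all probe sets in the fit. In that limma fit, with 1 residual degree of freedom and the jointly normalized values, the 95% interval of sulfuretin minus butein ran from -2.04 to 0.41 for Cebpb 1418901_at and from -2.99 to 1.18 for 1427844_a_at. It ran from -1.08 to 2.08 for Cebpa and from -1.37 to 0.97 for Pparg, and none excluded 0. The solvent arrays lie in different normalization sets, whereas butein and sulfuretin lie in the same set. These intervals therefore do not measure the spread between arrays of 1 set, and they cannot decide whether the compounds differ.

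Genes whose 3 treatment differences were closest to those of Cebpb were ranked by Euclidean distance over butein, sulfuretin and resveratrol, among 21547 probe sets. For 1418901_at the closest were Ptgr1 (distance 0.095), Siah2 (0.13), Spred2 (0.13), Ammecr1l (0.15) and Pim1 (0.15). For 1427844_a_at they were Ptgr1 (0.077), Pim1 (0.093), Gja1 (0.14), Gpr137b (0.15) and Arhgap12 (0.16). Ptgr1 read 740 with butein and 373 with sulfuretin, against 234 in DMSO, and 291 with resveratrol, against 290 in DMSO1. Ptgr1 and Pim1 were close to both probe sets. The measure rests on 5 arrays, and the butein and sulfuretin differences share DMSO.

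Genes around the core factors were described on their brightest probe set, where 2.32% of 12439 genes were past 2-fold with butein (2.03% upward), 0.241% with sulfuretin and 0.145% with resveratrol (0.0804% upward). In the wider C/EBP family, Ddit3, which encodes the C/EBP partner CHOP, read 2693 with butein and 406 with sulfuretin, against 408 in DMSO, and 758 with resveratrol, against 564 in DMSO1. It was 6.60-fold higher with butein, more than any core member. Cebpg, the other family gene with a probe set used here, was 1.28-fold lower with butein. Of 14 other pro-adipogenic transcription factors at the floor, 3 were past 2-fold with butein, all higher, and none with sulfuretin or resveratrol, with medians of 0.15, -0.04 and 0 for butein, sulfuretin and resveratrol. The 3 were the zinc finger genes Egr2 (25.6 with butein, against 7.32 in DMSO) and Klf4 (342 with butein, against 125 in DMSO) and the AP-1 gene Fosl2 (196 with butein, against 57.5 in DMSO). In DMSO Egr2 lay under the floor. The median over all genes at the floor was 0 in each comparison.

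Among 10 RXR genes and nuclear receptor partners of RXR at the floor, Nr4a1 was the 1 past 2-fold. It passed with butein (372, against 74.0 in DMSO) and with resveratrol (134, against 63.7 in DMSO1). The list's median was 0 in each comparison. Among the 10 are Rxrb and Rxrg, which encode the other RXR receptors. Their differences furthest from 0 were 0.21 for Rxrb with butein and -0.26 for Rxrg with resveratrol. Of 9 co-regulators of PPARγ none passed 2-fold, and the furthest was Ncoa3, the gene of a steroid receptor coactivator, at 0.72 with butein and 0.62 with sulfuretin. Ebf3, the 1 other EBF gene at the floor, differed from DMSO by -0.08 with butein and with sulfuretin.

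Target genes of PPARγ and C/EBPα were mostly lower with butein whichever solvent array was the control, and by less than 2-fold against DMSO. Of 18 PPARγ and C/EBPα target genes at the floor, 16 were lower with butein, none higher and 2 equal, with a median of -0.26, beside 37.1% of all 12439 genes lower. With sulfuretin 8 were lower and 7 higher, with a median of 0, beside 32.6% of all genes lower. With resveratrol 16 of 18 were lower, with a median of -0.09, beside 34.0% of all genes lower. Against the other solvent array on the joint scale, an alternative added after the data were seen, 16 of 18 were lower with butein (median -0.49), 14 with sulfuretin (median -0.33) and 7 with resveratrol (median 0.05). The share of all genes lower was not counted in that setting, so these counts have no background. The sign of the list's median held for butein and turned for resveratrol. Against their own solvent arrays none passed 2-fold downward, and Angptl4, whose product inhibits lipoprotein lipase, passed upward with resveratrol (141, against 65.4 in DMSO1) and was tied at 32.0 with butein, sulfuretin and in DMSO. Agpat2, an enzyme gene of triglyceride synthesis, had the largest difference with butein (1276, against 1920 in DMSO, a log2 difference of -0.59). Agpat2 falls outside the naming rule and was chosen after its values were seen. All 8 adipocyte markers are among these targets, so they give no separate count. Against their own solvent arrays, 6 of the 8 fibroblast and preadipocyte markers at the floor were lower with butein, 7 with sulfuretin and 6 with resveratrol. The furthest was Lum, the gene of a collagen-binding matrix protein, which read 22.3 with butein and 45.1 with sulfuretin, against 77.3 in DMSO, and 64.4 with resveratrol, against 96.6 in DMSO1. With butein it was 3.46-fold lower, and it was named after its values were seen. Against the other solvent array on the joint scale, 4 of these 8 markers were lower with butein and 4 higher. With sulfuretin 2 were lower and 6 higher, and with resveratrol all 8 were lower. The part of these markers in the target values was not tested.

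Of 10 glucocorticoid receptor target genes, 2 were past 2-fold with butein and none with the other compounds. They were the kinase gene Sgk1 (549 with butein, against 100.4 in DMSO) and the phosphatase gene Dusp1 (667 with butein, against 101 in DMSO). Of the 10 genes, 7 were higher with butein, beside 33.0% of all 12439 genes. Sult1a1 was the 1 that was lower (log2 difference -0.86), and 2, Tsc22d3 and Lcn2, were equal to DMSO. The list's median was 0.42 with butein, 0.02 with sulfuretin and 0.25 with resveratrol. The receptor gene itself was at or near its solvent arrays on its brightest probe sets. Of 7 STAT5 target genes, Socs3, a feedback inhibitor of cytokine signalling (698 with butein, against 104 in DMSO), and the kinase gene Pim1 (47.8 with butein, against 14.8 in DMSO) were past 2-fold with butein. Neither of these passed 2-fold with sulfuretin or resveratrol. Cish and Socs2, STAT5 feedback genes of the same list, differed by 0.18 and 0.01 with butein. The medians of that list were 0.16, 0.06 and 0.06 for butein, sulfuretin and resveratrol.

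**Figure D5:**
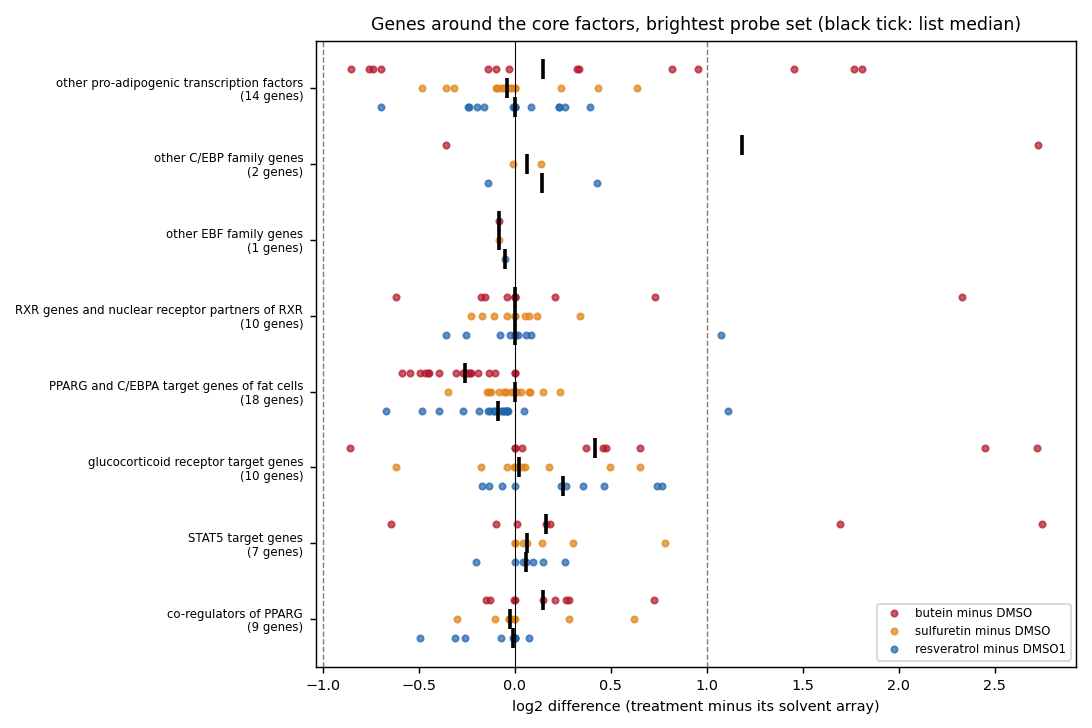
Log2 difference of each treated array to its solvent array for genes of 8 lists around the core factors (brightest probe set, genes at the floor only, number of genes beside each list). Each point is a gene, black ticks are list medians and dashed lines mark 2-fold. The points past 2-fold are higher in every case, and the fat cell target genes lie mostly below 0 with butein (median -0.26).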

How the data were processed

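Total RNA of differentiated C3H10T1/2 adipocytes was hybridised to Affymetrix mouse arrays, 1 per group. Per the submitters' processing notes the authors used RMA, with no version or scale stated. The deposited values are linear intensities, as their range from 1.40 to 9340 shows, and log2 of each was taken with no pseudocount. Their sorted values fall into 2 sets, so butein and sulfuretin were compared with DMSO and resveratrol with DMSO1. Nothing says whether the arrays came from separate cultures. The number of arrays limits the precision.

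In the platform annotation 34945 of 45037 probe sets carry 1 gene, 932 several and 9160 none. Symbols were updated through a RefSeq table of GRCm38.p6, which held 34741 of the single-gene IDs, and no gene coordinates are used apart from the RefSeq promoter windows. The floor was the median level of all probe sets (mean log2 over arrays), and 26028 probe sets reached it on at least 1 array. A difference was called at 2-fold. For lists, each gene was represented by its brightest probe set. From each pathway list, genes past 2-fold were named, or else the 1 furthest from 0, and for Cebpb the 5 closest patterns. Cebpg, Rxrb, Rxrg, Cish, Socs2, Agpat2, Sult1a1, Tsc22d3, Lcn2 and the markers named lie outside this rule and were added after their values were seen. The members and lists were chosen with earlier results of these data known. The list genes Cebpe, Cebpz, Nr1h2, Plin1, Acsl1, Cfd, Ncor1, Ly6a, Bglap and Runx2 were not analysed here.

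Alternatives were a 1.5-fold criterion, joint quantile normalization, centring, loess (span 0.4), the other or both DMSO arrays as control, no floor or one at percentile 75, 1 value per gene, and limma (adjusted p 0.05, Benjamini-Hochberg). The calls and limma were also run on simulated arrays that had no difference between the solvent arrays or normalization sets. That run therefore does not measure how they perform on the deposited arrays. The tools were limma 3.58.1 in R 4.3.3, and pandas 2.3.3, numpy 2.4.6, matplotlib 3.10.9 and statsmodels 0.14.6 in Python 3.11.15.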

Additional observations from a re-analysis of the deposited data

How the results depend on the processing

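The count of member probe sets past 2-fold depended on the solvent array. Against the other DMSO array, on jointly quantile normalized values, it was 6 with butein (1 higher, 5 lower), 4 with sulfuretin (all lower) and 6 with resveratrol (5 higher, 1 lower), in place of 2, 0 and 0. With the mean of both DMSO arrays it was 3 with butein (1 higher, 2 lower), 1 with sulfuretin (lower) and 2 with resveratrol (both higher). Those arrays lie in different normalization sets, and the cause was not tested. The share of all probe sets past 2-fold was not counted in these settings, so the counts have no background. DMSO1 minus DMSO alone put 11.5% of all probe sets past 2-fold in either direction on the joint scale. Against the other DMSO array, the calls for each compound included Nr3c1 and Stat5a probe sets under the floor on the butein, sulfuretin and DMSO arrays. The counts therefore say nothing particular about the members. With 1 value per gene, the brightest probe set or the mean of all, the butein count was 1 gene, since both calls belong to Cebpb. At 1.5-fold the count was 2 for sulfuretin minus DMSO and 2 for sulfuretin minus butein. With limma and both DMSO arrays as replicates it was 0 in each comparison, with probe sets under an unadjusted p of 0.05 numbering 377 for butein, 39 for sulfuretin, 18 for resveratrol and 119 for sulfuretin minus butein. Joint quantile normalization alone, centring, loess and the other floors changed no count. The median over the members stayed between -0.076 and 0.017 with butein, 0 and 0.029 with sulfuretin, and -0.15 and -0.047 with resveratrol. Of the members at the floor that differed from their solvent array, the other DMSO array turned the direction of 5 with butein, 11 with sulfuretin and 4 with resveratrol, and normalization with the same control turned none. For the lists around the core factors, a change of control to the other DMSO array, chosen after seeing the data, turned the sign of 7 of 24 medians. With butein the median of other EBF genes became 0.30. With sulfuretin the medians became 0.0021 for other pro-adipogenic factors, -0.0054 for other C/EBP genes, 0.31 for other EBF genes and 0.35 for PPARγ co-regulators. With resveratrol they became 0.053 for PPARγ and C/EBPα targets and -0.18 for STAT5 targets. No paired analysis was possible because each group holds 1 array. With 1 array per group no spread within a group could be measured, which limits every difference given.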
